A study of Mus musculus with 18 samples.

Results

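The mammalian fatty acid elongation and desaturation machinery was followed in the retina through 10 genes, chosen by symbol: the elongases Elovl1, Elovl2, Elovl4 and Elovl5, the front-end desaturases Fads1 and Fads2, the stearoyl-CoA desaturases Scd1 and Scd2, the acyl-CoA synthetase Acsl6 and the fatty acid synthase Fasn. All 10 were found among the 35006 gene names of the count files and all 10 passed the filter on low counts, with 16183 genes tested in all. Acsl6 and Fasn are neither elongases nor desaturases, and they stand here for the activation and the de novo synthesis of the fatty acids on which the other 8 act.

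The libraries were made from poly(A) RNA of whole retinas of male mice at 24 weeks of age, and read counts per gene were deposited. WT mice were C57BL/6J. Akita mice (C57BL/6-Ins2Akita/J) carry a heterozygous mutation of Ins2, an insulin gene, in every cell and become diabetic without a drug. NACET, an ester of N-acetylcysteine that cells take up and turn into cysteine, was dissolved in the water that the treated mice drank (0.33 mg/mL, a daily intake of 50 mg/kg) from week 4 to week 24, and the other mice drank plain water. There were 3 WT, 6 WT + NACET, 4 Akita and 5 Akita + NACET libraries, and the labels do not say which animal each came from, so p-values measure the spread between libraries.

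Photoreceptor discs are among the membranes richest in very long and highly unsaturated fatty acids, above all docosahexaenoic acid. Dietary precursors are desaturated by FADS2 and FADS1 and lengthened in turn by ELOVL5 and ELOVL2, and ELOVL4 carries some of the products on to the very long chain polyunsaturated fatty acids that are known from photoreceptors. ELOVL1 lengthens saturated and monounsaturated chains that end up in sphingolipids, SCD1 and SCD2 place the first double bond into saturated chains made by FASN, and ACSL6 activates docosahexaenoic acid for its entry into phospholipids.

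The questions asked of these genes were whether their RNA differed in the diabetic retina, and whether it differed with NACET in either genotype. Between Akita and WT retinas Elovl2 RNA was higher and Elovl1 and Elovl5 RNA lower, and the other 7 genes did not pass the test. With NACET in Akita mice Elovl1 RNA was at 1.84 times its Akita level, and no other gene of the 10 passed. Each of these calls ended without the library Akita replicate 4, and also with the share of reads outside exons in the model.

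Gene counts per library ranged from 11495596 to 17814479. Rod markers were high, with Sag, the rod arrestin, at a mean of 9689 CPM. CPM are counts in proportion to the library total after that total was multiplied by a scaling factor (TMM). The factor ran from 0.803 in Akita replicate 4 to 1.13 in Akita + NACET replicate 5. A low factor raises every CPM value of its library. Of 8 adipocyte markers the defining Adipoq and Cidec reached at most 5 and 1 reads in any library and Fabp4, the highest, 115 reads. Their summed level was 3.59 to 6.08 CPM in WT, 3.34 to 9.92 CPM in WT + NACET, 6.88 to 9.12 CPM in Akita and 3.59 to 9.78 CPM in Akita + NACET, higher in every Akita than in every WT library, and its part in the results was not tested. Several library properties moved with the groups. The share of uniquely aligned reads outside annotated exons was 16.3% ± 1.24 (SD, n = 3) in WT, 12.7% ± 2.74 (n = 6) in WT + NACET, 11.5% ± 1.83 (n = 4) in Akita and 16.4% ± 2.11 (n = 5) in Akita + NACET. The summed level of 8 lens genes was below 100 CPM in 14 libraries and reached 23440.5 CPM in WT + NACET replicate 5. One library stood apart in the members themselves: of the 18 libraries, Akita replicate 4 had the highest level of 3 members (Elovl2, Elovl4 and Acsl6) and the lowest of 6 (Elovl1, Elovl5, Fads1, Fads2, Scd1 and Scd2). Values without it are given for the calls among the 10 genes. Of the calls named below for other fatty acid genes, without that library only the fall of Elovl6 between WT and Akita still passed (adjusted p = 0.0418), while the other calls of Akita against WT ended with adjusted p of 0.0518 to 0.147 and those of Akita + NACET against Akita ended with 0.0649 to 0.184.

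The upstream sequences of 3 genes are shown because their genes are those that passed the test between Akita and WT. Each is the 250 bases before a RefSeq transcript start, 5′ to 3′ on the gene's strand, in build GRCm38.p6, with motif matches in capitals (a CCAAT box, read as ATTGG on the other strand, or the E-box CACGTG). They lie at chr4:118427843-118428092 (plus strand) for Elovl1, chr9:77917115-77917364 (plus strand) for Elovl5 and chr13:41220404-41220653 (minus strand) for the more upstream of 2 Elovl2 starts.
Elovl1: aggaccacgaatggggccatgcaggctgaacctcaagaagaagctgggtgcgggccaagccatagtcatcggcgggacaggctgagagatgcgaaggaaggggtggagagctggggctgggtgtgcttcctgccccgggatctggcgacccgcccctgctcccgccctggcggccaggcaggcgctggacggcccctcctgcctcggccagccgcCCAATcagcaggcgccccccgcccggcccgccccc
Elovl5: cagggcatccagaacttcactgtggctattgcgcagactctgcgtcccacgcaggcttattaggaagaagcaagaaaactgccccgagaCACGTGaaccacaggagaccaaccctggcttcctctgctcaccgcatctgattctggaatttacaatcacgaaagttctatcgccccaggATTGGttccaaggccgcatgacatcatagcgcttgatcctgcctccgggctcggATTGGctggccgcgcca
Elovl2: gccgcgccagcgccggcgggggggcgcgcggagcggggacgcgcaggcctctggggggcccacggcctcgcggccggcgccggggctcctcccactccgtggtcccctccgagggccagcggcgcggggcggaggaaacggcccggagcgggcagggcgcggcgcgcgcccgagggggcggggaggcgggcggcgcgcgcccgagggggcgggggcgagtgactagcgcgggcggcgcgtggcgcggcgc
Elovl1 had 1 CCAAT box, 35 bases before the start shown, and its other RefSeq start, further downstream, held no match. Elovl5 had an E-box 161 bases before the start and 2 CCAAT boxes, 71 and 17 bases before it. Elovl2 held none of the motifs searched. CCAAT is common, being found on either strand in 33.85% of the 32851 mouse promoter windows of this length, and CACGTG was found in 6.021%.

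The other motifs searched on both strands were TCACNCCAC for the sterol element bound by SREBP (1.053% of windows), TGACNNNGC for the core of the antioxidant response element bound by NRF2 (10.16%) and TAATCC for the photoreceptor homeodomain factor CRX (6.252%). RefSeq windows were at hand for 7 of the 10 genes, with 11 start sites, and Fads1, Scd1 and Scd2 had no entry. Of the remaining genes Fasn had 3 CCAAT boxes, the pair at 62 and 59 bases before the start overlapping on opposite strands, and Acsl6 had a CCAAT box at start sites 1 and 3 and an antioxidant response element core 17 bases before site 1. No match was found in Elovl4 or Fads2. A match is a stretch of letters and was not tested as a binding site.

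Per kilobase of exon, the 10 genes spanned 302-fold. Elovl4 was the highest at 627 ± 98.3 CPM per kb (SD, n = 18), higher than 99.7% of the 16071 genes with a known length, and Elovl2 followed at 68.6 ± 14.7 CPM per kb. Fads2 (28.0 CPM per kb), Acsl6 (25.6), Scd2 (20.9) and Fads1 (18.1) lay close together, and Elovl5 (10.1), Fasn (5.63), Elovl1 (2.48) and Scd1 (2.08) were lower. Elovl4 was above Elovl2, and Elovl2 above Fads2, in 18 of 18 libraries. The neighbours Fads2 and Acsl6 kept their order in 14 of 18 libraries, while Acsl6 was above Scd2 and Scd2 above Fads1 in 16 of 18. Elovl1 was above Scd1 in 11 of 18, in 0 of 4 Akita, 5 of 5 Akita + NACET, 1 of 3 WT and 5 of 6 WT + NACET libraries, and this order by group was not tested.

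**Figure D1:**
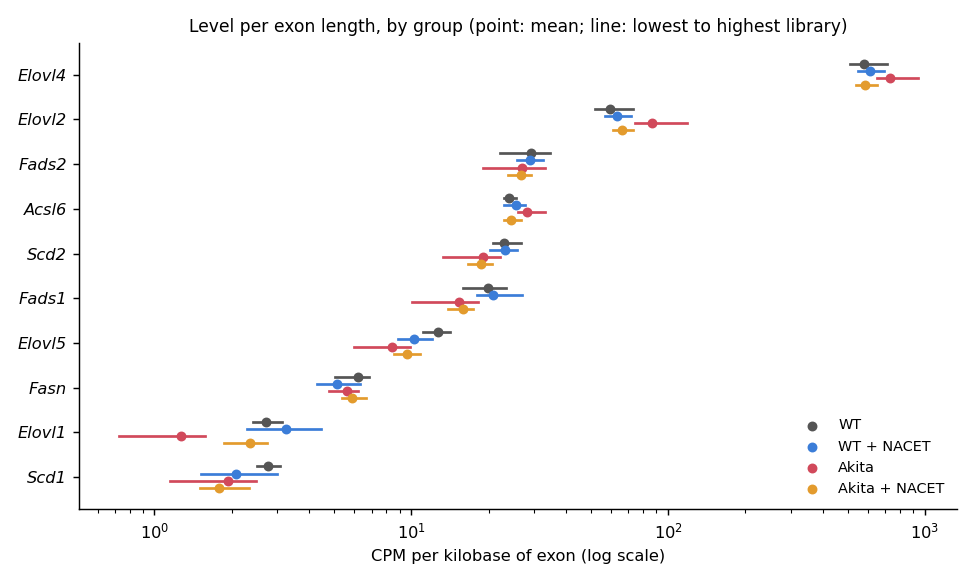
Level of each gene in CPM per kilobase of exon (log axis), with 1 line for each of the 4 groups running from its lowest to its highest library and a point at the group mean. Elovl4 lies near 627 CPM per kb and Scd1 near 2.08, and the Akita line of Elovl1 lies wholly below those of the other groups.

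Between libraries of a group, Acsl6 was the steadiest of the 10, with a pooled SD of 0.11 in log2 CPM, with 8.93% of tested genes lower, and Elovl1 the most variable, with an SD of 0.34. Elovl1 is a low gene here, with 24 to 214 reads per library, and its counting error is correspondingly larger than that of Elovl2, with 2578 to 5502 reads.

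Elovl2 (mm9 chr13:41277864-41315774, minus strand) makes the long n-3 precursors of docosahexaenoic acid. Its level in WT was 199, 206 and 281 CPM, and in Akita 295, 297, 287 and 456 CPM. In Akita + NACET it was 251, 235, 241, 281 and 266 CPM, and in WT + NACET it ran from 218 to 277 CPM with a median of 237. Every Akita library was above every WT library and above every Akita + NACET library, narrowly in both cases, with the lowest Akita library at 287 CPM and the highest of either other group at 281 CPM. The log2 fold change of Akita against WT was 0.55 ± 0.15 (SE), a rise to 1.46 times WT, with an adjusted p of 0.0336 in the quasi-likelihood test of edgeR. Without Akita replicate 4 the difference was 0.36 with an adjusted p of 0.101, and the call was also lost without WT replicate 1 (adjusted p = 0.175) or WT replicate 2 (0.143). Of 27 alternatives 7 lost this call, among them DESeq2 with 2 groups. Between Akita + NACET and Akita the log2 fold change was -0.39 ± 0.13 with an adjusted p of 0.0581, which missed the threshold in edgeR. Of 27 alternatives only 1 passed it, DESeq2 with all groups (adjusted p = 0.0315).

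Elovl4 (chr9:83672300-83699912 in mm9, minus strand), the elongase of the very long chain fatty acids and the most abundant of the 10, had 1553, 1601 and 2167 CPM in WT and 2088, 1989, 2012 and 2858 CPM in Akita. Akita + NACET libraries had 1648, 1702, 1839.6, 1990.4 and 1776 CPM, and the WT + NACET range was 1681 to 2117 CPM with a median of 1846. WT replicate 3 lay within the Akita range, so the groups overlapped. The log2 fold change was 0.33 ± 0.14 for Akita against WT (adjusted p = 0.130) and -0.32 ± 0.12 for Akita + NACET against Akita (adjusted p = 0.0901), and neither passed. Without WT replicate 3 the first was 0.49 with an adjusted p of 0.0372, so that 1 WT library decided this call.

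Acsl6 (chr11:54117300-54178258 in mm9, plus strand), which channels docosahexaenoic acid into phospholipids, had 228, 231 and 253 CPM in WT and 260.1, 257, 269 and 329.7 CPM in Akita. It had 229 to 265 CPM in Akita + NACET and 228 to 275 CPM in WT + NACET with a median of 259. The Akita and WT libraries did not overlap, but the change was small, at 0.23 ± 0.10 on the log2 scale, and its adjusted p was 0.128. Acsl6 shares 202 exon bases with the antisense gene Gm12224, and reads there cannot be assigned to a strand.

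Of these 3 genes only Elovl2 passed between Akita and WT. Rod transcripts moved between the same groups. Of 11 rod markers 3 (Gnb1, Nrl and Cnga1) rose in Akita against WT, where 3.96% of all genes tested rose. In Akita + NACET against Akita 6 fell, where 5.14% of all genes did. Each of these calls ended without Akita replicate 4. The summed rod level was 50355 to 69136 CPM in WT, 67156 to 94731 CPM in Akita, with the maximum in replicate 4, 46151 to 60005 CPM in Akita + NACET and 62640 to 83347 CPM in WT + NACET. The part of this shift in the values above was not tested. In bulk retina, more or fewer cells of a type and more or less RNA per cell cannot be told apart.

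**Figure D2:**
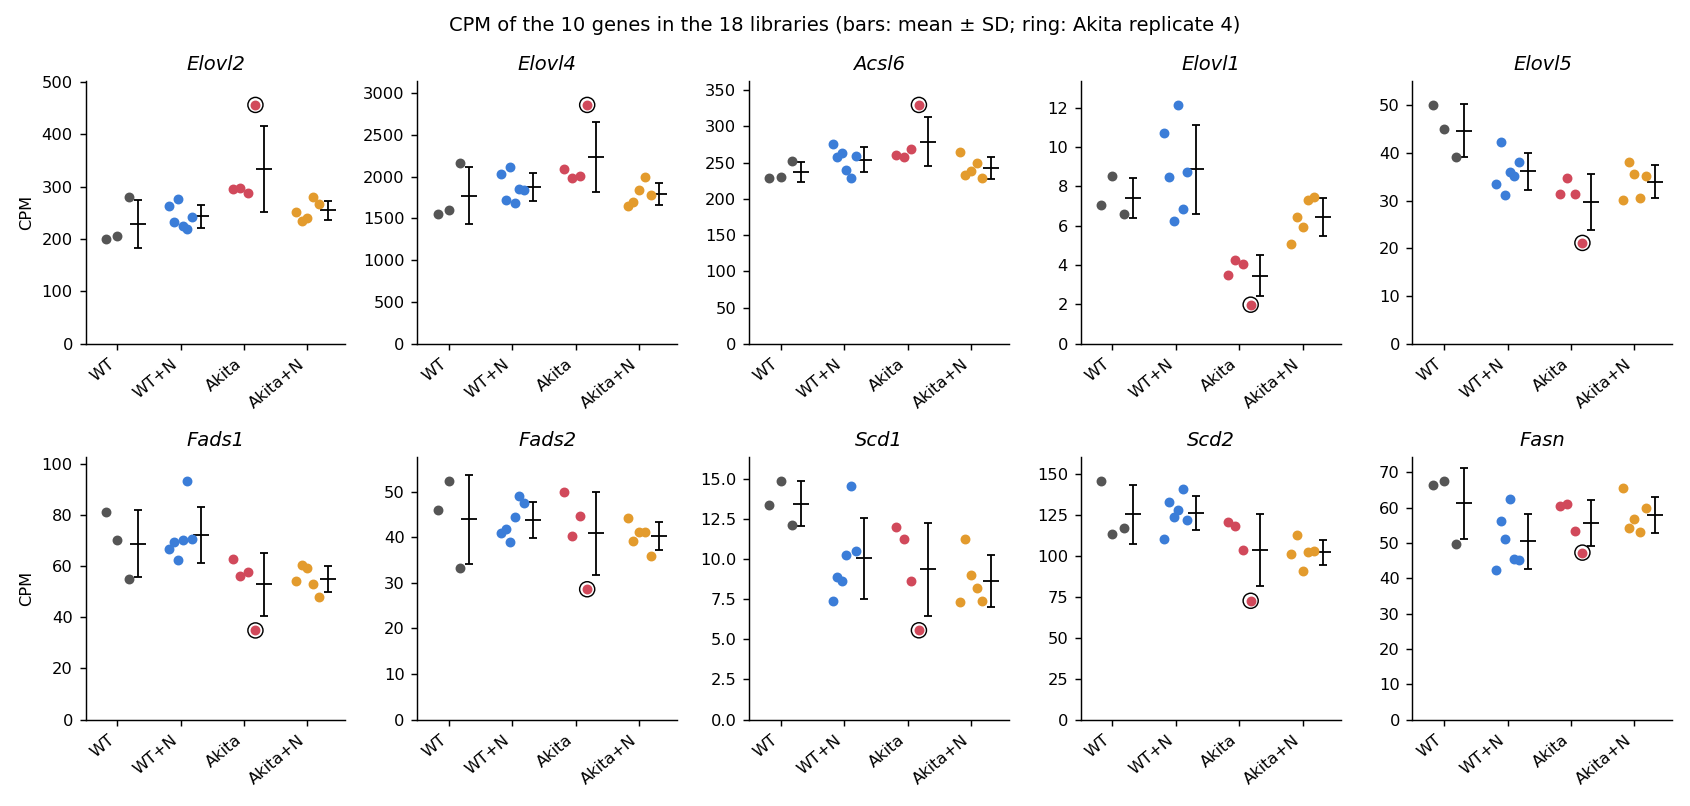
CPM of each gene (linear axis from 0) in the 18 libraries, 1 point a library, with the mean and SD of each group beside the points, +N marking NACET and a ring marking Akita replicate 4. That library is the highest for Elovl2 at 456 CPM, Elovl4 at 2858 CPM and Acsl6 at 329.7 CPM, and the Akita points of Elovl1 lie below all other points.

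Elovl1 (chr4:118100698-118105558 in mm9, plus strand), the elongase of saturated and monounsaturated very long chains, showed the widest change of the 10. It had 7.04, 8.55 and 6.62 CPM in WT and 3.51, 4.29, 4.08 and 1.99 CPM in Akita. In Akita + NACET it had 5.10, 6.42, 5.93, 7.33 and 7.45 CPM, and in WT + NACET 6.22 to 12.1 CPM with a median of 8.62. All 4 Akita libraries were below all 14 others. Elovl1 fell by 1.08 on the log2 scale in Akita against WT (SE 0.24), to 0.474 times WT, with an adjusted p of 0.0169 in edgeR. It rose by 0.88 ± 0.22 in Akita + NACET against Akita (adjusted p = 0.0223), and its level there lay near that of WT (log2 fold change -0.20 ± 0.22, adjusted p = 1). Both differences share the Akita libraries and are not independent of each other. Without Akita replicate 4 they were -0.90 (adjusted p = 0.0501) and 0.70 (adjusted p = 0.0736), and the calls were also lost without WT replicate 1 (0.108) or 2 (0.0874) for the first and without Akita + NACET replicate 5 (0.0635) for the second. Elovl1 shares 53 exon bases with Cdc20 on the opposite strand. Cdc20 was at 0.160 to 0.986 CPM in every library, under the level of Elovl1, and did not pass the test.

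Elovl5 (chr9:77765171-77832326 in mm9, plus strand), which lengthens the products of FADS2, fell between WT and Akita. It had 50.0, 44.9 and 39.1 CPM in WT and 31.5, 34.7, 31.4 and 21.1 CPM in Akita, with no overlap. In Akita + NACET it had 30.2, 38.1, 35.6, 30.6 and 35.2 CPM, also below all WT libraries, and in WT + NACET 31.3 to 42.4 CPM with a median of 35.6. The log2 fold change of Akita against WT was -0.59 ± 0.14 (adjusted p = 0.0233), or 0.666 times WT. The difference between Akita + NACET and Akita was 0.19 ± 0.12 (adjusted p = 0.321). WT + NACET libraries were lower than WT by 0.31 ± 0.13 on the log2 scale, with an adjusted p of 0.198. The call of Akita against WT ended when WT replicate 1 (adjusted p = 0.129), WT replicate 2 (0.0867) or Akita replicate 4 (0.0561, log2 fold change -0.46) was left out.

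In that comparison 3 of the 10 genes were called, 1 higher and 2 lower, where 7.64% of all genes tested were called. With an unadjusted p under 0.05 there were 7 of the 10, where 27.0% of all genes had one. The 2 groups did not overlap for 5 of the 10, and for 23.2% of all genes. The median log2 fold change of the 10 was -0.21, against -0.01 over all genes. All 3 calls were lost when the share of reads lying outside exons was added to the model, with adjusted p of 0.326 for Elovl1, 0.355 for Elovl2 and 0.342 for Elovl5 and log2 fold changes of -0.73, 0.43 and -0.41. The same model called 0 of all genes tested. That share differs between WT and Akita with no overlap, so it and the genotype can hardly be told apart here. The libraries whose omission ended calls did so across the transcriptome: without WT replicate 1 or WT replicate 2, 0 genes in all were called in this comparison, and without Akita replicate 4 there were 234, against 1237 with all libraries. Among markers of other cells, 5 of 9 amacrine genes and 1 of 10 Müller glia genes fell in Akita, where 3.68% of all genes fell. Of 11 pigment epithelium genes 0 passed, and the summed level of the 10 other than Trpm1, which bipolar cells also express, was 74.8 to 257 CPM in Akita and 162 to 758 CPM in WT. Their part in the lower Elovl1 and Elovl5 was not tested.

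For Akita + NACET against Akita 1 of the 10 was called, beside 9.65% of all genes, 4 had an unadjusted p under 0.05 (Elovl1, Elovl2, Elovl4 and Acsl6) where 29.0% of all genes had one, and the median log2 fold change was -0.02, as against -0.00 over all genes. With the share of reads outside exons in the model the Elovl1 difference was 0.53 with an adjusted p of 0.633. The same model called 0 of all genes tested here too. That share was 9.67% to 13.3% in Akita and 14.3% to 19.8% in Akita + NACET, with no overlap. It and NACET in Akita can therefore hardly be told apart. Over all genes, 1562 were called, 1 without Akita replicate 4 and 101 without Akita + NACET replicate 5.

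**Figure D3:**
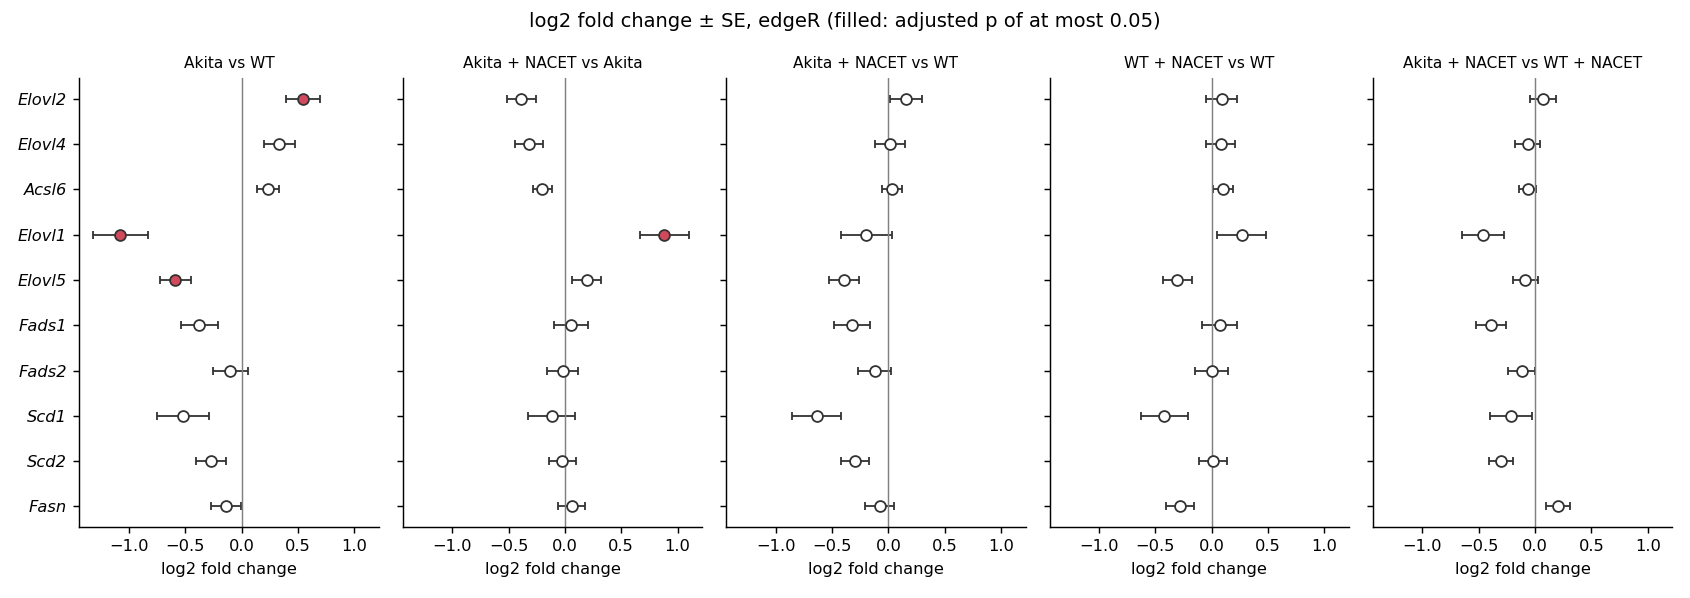
log2 fold change (x axis, with its SE as the bar) of the 10 genes in 5 comparisons of groups, filled where the adjusted p was at most 0.05. There are 3 filled points for Akita vs WT (Elovl1, Elovl2 and Elovl5), 1 for Akita + NACET vs Akita (Elovl1) and 0 in the other panels.

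The front-end desaturases, which lie near each other in mm9 at chr19:10257378-10271360 on the plus strand (Fads1) and chr19:10138654-10175993 on the minus strand (Fads2), did not pass in any comparison. Fads1, which makes the final double bond of arachidonic and eicosapentaenoic acid, had 80.9, 70.1 and 54.9 CPM in WT, 62.8, 56.0, 57.8 and 34.8 CPM in Akita and 54.2, 60.2, 59.1, 53.0 and 47.9 CPM in Akita + NACET. In WT + NACET it ran from 62.2 to 93.3 CPM with a median of 69.8. The WT library with the lowest value lay among the Akita ones, whereas no Akita + NACET library reached the lowest WT + NACET one. The log2 fold change was -0.37 ± 0.17 for Akita against WT (adjusted p = 0.154) and -0.39 ± 0.13 for Akita + NACET against WT + NACET (adjusted p = 0.0559). The second passed in DESeq2 (adjusted p = 0.0323 with all groups) and in edgeR with 2 groups (0.0218). The highest Fads1 value, 93.3 CPM, was in WT + NACET replicate 5, the library with the high lens genes. Fads2, the enzyme of the first step, had 33.3 to 52.4 CPM in WT, 28.6 to 49.9 CPM in Akita, 35.9 to 44.2 CPM in Akita + NACET and 39.1 to 49.1 CPM in WT + NACET with a median of 43.1, and its log2 fold changes in the 5 comparisons lay between -0.12 and -0.00 with all groups overlapping.

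The stearoyl-CoA desaturases also gave no call. They too are neighbours in mm9, Scd1 at chr19:44468941-44482199 on the minus strand and Scd2 at chr19:44368166-44381354 on the plus strand, and Scd2 holds 61 exon bases of a small RNA gene, AC123853.2. Scd1, the main form of liver and fat, had 13.4, 14.9 and 12.1 CPM in WT, 11.99, 11.2, 8.602 and 5.55 CPM in Akita and 7.30, 11.3, 8.998, 8.20 and 7.38 CPM in Akita + NACET. WT + NACET libraries ran from 7.37 to 14.6 CPM with a median of 9.54, and the highest was again replicate 5. All Akita and Akita + NACET libraries were below all WT ones, the closest pair nearly equal, yet with -0.52 ± 0.23 (adjusted p = 0.154) and -0.64 ± 0.22 (adjusted p = 1) the differences did not pass. Scd2, the form of brain and other neural tissue, was 10.1 times as abundant per kilobase. It had 146, 113 and 117 CPM in WT, 120.3, 118, 103 and 72.4 CPM in Akita and 101, 113, 90.7, 102 and 103 CPM in Akita + NACET, and 110.0 to 140.4 CPM in WT + NACET with a median of 126. Its log2 fold change was -0.27 ± 0.13 for Akita against WT (adjusted p = 0.194) and -0.31 ± 0.11 for Akita + NACET against WT + NACET (adjusted p = 0.0612), of which the latter passed in DESeq2 with all groups (0.0433) and in edgeR with 2 groups (0.0206).

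Fasn (chr11:120667254-120685492 in mm9, minus strand), which builds palmitate, gave no call either. It had 66.3, 67.6 and 49.6 CPM in WT, 60.5, 60.9, 53.5 and 47.2 CPM in Akita, 53.1 to 65.7 CPM in Akita + NACET and 42.3 to 62.4 CPM in WT + NACET with a median of 48.2. The log2 fold change was -0.14 ± 0.13 for Akita against WT and -0.28 ± 0.12 for WT + NACET against WT (adjusted p = 0.225).

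**Figure D4:**
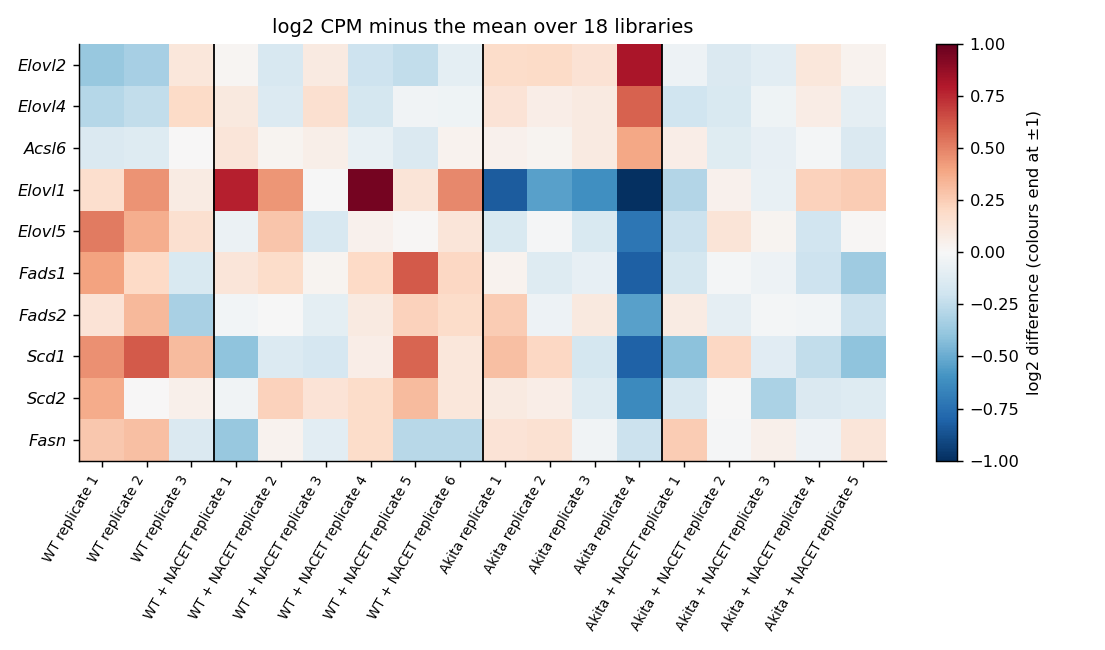
log2 CPM of each gene minus its mean over the 18 libraries, 1 column a library, with black lines between groups and colours ending at a difference of 1. Akita replicate 4 is the extreme column, red in Elovl2, Elovl4 and Acsl6 and blue in the other 7 genes, and the 4 Akita libraries are blue in Elovl1.

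The other comparisons called none of the 10. For Akita + NACET against WT, edgeR called 0, where 0.00618% of all genes were called, and 3 (Elovl5, Scd1 and Scd2) had an unadjusted p under 0.05 and groups that did not overlap. Over all genes 4.63% had such a p, and 2.30% had both. DESeq2 also called 0, beside 0.058% of all genes. For WT + NACET against WT it called 0 beside 1.48% of all genes, with 2 (Elovl5 and Fasn) under an unadjusted 0.05, where 19.5% of all genes were, and 0 in DESeq2, which called 4.6% of all. For Akita + NACET against WT + NACET it called 0 beside 13.3%, with 3 (Elovl1, Fads1 and Scd2) under an unadjusted 0.05, where 31.1% of all genes were, and DESeq2 called 2, Fads1 and Scd2, beside 17.4% of all. The WT + NACET libraries differed from all others in genes outside this pathway: Wdfy1 was at 89.0 to 103 CPM there and at 12.4 to 17.0 CPM in the other 3 groups, and Acp1 was at 2.05 to 3.14 CPM against 26.7 to 40.1 CPM. Whatever sets these libraries apart cannot be told apart from NACET in WT + NACET against WT. In Akita + NACET against WT + NACET, where both groups had NACET, it cannot be told apart from the genotype. The interaction also uses these libraries.

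Whether NACET acted differently in the 2 genotypes was tested as an interaction, the NACET difference in Akita minus that in WT. edgeR called 0 of the 10 beside 20.3% of all genes, and 4 (Elovl2, Elovl4, Elovl5 and Acsl6) had an unadjusted p under 0.05, as had 35.6% of all genes. Elovl5 came closest, at 0.50 ± 0.18 on the log2 scale with an adjusted p of 0.0538, and the interaction of Elovl2 was -0.48 ± 0.19 (adjusted p = 0.0773). DESeq2 called 2, Elovl5 (adjusted p = 0.0450) and Acsl6 (0.0486), beside 22.4% of all genes. Without WT replicate 3 edgeR called 3, Elovl2, Elovl4 and Elovl5, with adjusted p of 0.0257, 0.0327 and 0.0345. The Elovl1 interaction was 0.62 ± 0.30 (adjusted p = 0.151), so its NACET difference in Akita was not shown to differ from that in WT.

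**Figure D5:**
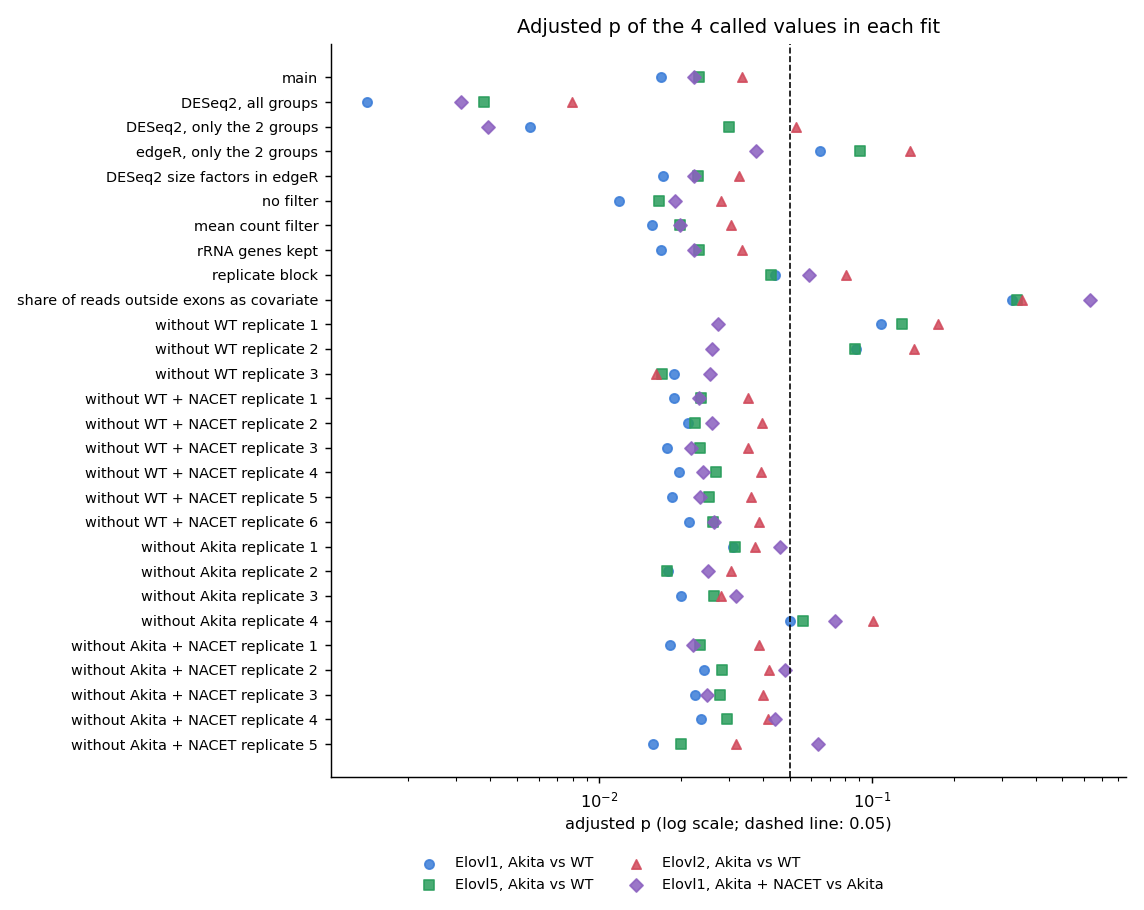
Adjusted p (log axis) of the 4 called differences in the reported fit (top line) and in 27 alternatives, with a dashed line at the threshold of 0.05. Points to the right of the line are lost calls, as without WT replicate 1, WT replicate 2 or Akita replicate 4 for Akita vs WT, and for all 4 when the share of reads lying outside exons was in the model.

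Related enzymes were also compared within libraries, where the scaling between libraries cancels. Over 15 exact two-sided permutation tests of log2 ratios (3 pairs in 5 comparisons), 0 passed after adjustment. Elovl2 relative to Elovl4 was very even in WT, at -2.96 ± 0.007 (SD, n = 3), and higher in Akita, at -2.76 ± 0.079 (n = 4), with no overlap. The difference of 0.20 had an exact permutation p of 0.0286, the smallest this design allows, and an adjusted p of 0.134. In Akita + NACET the ratio was -2.81 ± 0.088 (n = 5). Fads1 relative to Fads2 was 0.44 ± 0.13 (n = 5) in Akita + NACET and 0.71 ± 0.12 (n = 6) in WT + NACET, a difference of -0.27 with an exact permutation p of 0.00649 and an adjusted p of 0.0974. Scd1 relative to Scd2 was lower in WT + NACET than in WT by 0.46 (exact permutation p = 0.0357, adjusted p = 0.134).

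The rest of the elongation cycle was led by Elovl6, the elongase that turns palmitate into stearate. It had 45.8, 41.1 and 43.5 CPM in WT, 28.8, 31.4, 27.7 and 25.6 CPM in Akita and 34.7, 41.2, 36.9, 36.2 and 45.6 CPM in Akita + NACET, and 30.2 to 39.9 CPM in WT + NACET with a median of 35.2. The Akita libraries lay below all WT and all Akita + NACET libraries. Elovl6 fell by 0.61 on the log2 scale in Akita against WT (SE 0.12, adjusted p = 0.0151) and rose by 0.46 ± 0.11 in Akita + NACET against Akita (adjusted p = 0.0206). Its interaction was 0.77 ± 0.15 with an adjusted p of 0.00342. The first call was lost without WT replicate 1 (0.108) or 2 (0.0581), and the second without Akita replicate 4 (0.0683) or Akita + NACET replicate 5 (0.0582). Of 8 tested genes in this list, 1 fell and 0 rose in Akita, where 3.68% of all genes fell and 3.96% rose. With NACET in Akita 1 rose and 1, the dehydratase Ptplad1 (Hacd3), fell by 0.31 ± 0.08 (adjusted p = 0.0291). There 4.51% of all genes rose and 5.14% fell. Of 5 other desaturases tested, 0 passed in either comparison. Degs1, the desaturase of ceramide synthesis, was lower in Akita + NACET than in WT + NACET (-0.38 ± 0.10, adjusted p = 0.0172). Degs2 had an interaction of 1.54 ± 0.45 (adjusted p = 0.0225), on a level of 0.379 to 2.48 CPM.

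Of 15 regulators tested (SREBP, LXR and PPAR), 3 rose in Akita and 0 fell, where 3.96% of all genes rose and 3.68% fell. Srebf1, which encodes the SREBP-1 activators of lipogenic genes, had 92.6, 111 and 88.9 CPM in WT and 178, 156, 121 and 251 CPM in Akita, with no overlap. It rose by 0.86 ± 0.21 on the log2 scale (adjusted p = 0.0252). Leaving out WT replicate 1, WT replicate 2 or Akita replicate 4 ended the call, with adjusted p of 0.124, 0.0757 and 0.0714. So did edgeR with 2 groups, the replicate number as a block and the share of reads outside exons in the model. In Akita + NACET it had 163, 112, 119, 110.2 and 88.7 CPM, a fall of 0.58 against Akita (SE 0.18) with an adjusted p of 0.0494, lost in 20 of 27 alternatives. Scap, the escort protein of SREBP, rose by 0.46 ± 0.14 (adjusted p = 0.0496) and Ppard, a fatty acid receptor, by 0.72 ± 0.20 (adjusted p = 0.0383). The Scap call was lost in 19 of 27 alternatives and that of Ppard in 8 of 27. Srebf2, the activator of sterol synthesis, and the LXR genes Nr1h2 and Nr1h3 had log2 fold changes of -0.16, 0.13 and 0.04 in Akita and did not pass. Mbtps1, a protease of SREBP, had an interaction of -0.42 ± 0.13 (adjusted p = 0.0298).

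Acyltransferases place the finished chains into phospholipids. Of 13 tested, Lpcat2 and Agpat3 rose in Akita, by 0.49 ± 0.11 (adjusted p = 0.0191) and 0.65 ± 0.16 (adjusted p = 0.0235). Both fell with NACET in Akita, by 0.45 (adjusted p = 0.0195) and 0.58 (adjusted p = 0.0207). Among all genes tested, 3.96% rose in Akita against WT and 5.14% fell in Akita + NACET against Akita. The rises and falls share the Akita libraries and are not independent of each other. Without Akita replicate 4 all 4 calls ended, with adjusted p of 0.0541 and 0.0518 for the rises and 0.0649 and 0.0668 for the falls. Agpat3 can add docosahexaenoic acid to lysophosphatidic acid. It had 2172, 2368 and 2588 CPM in WT and 3369, 3102, 3047 and 5345 CPM in Akita, and its highest value was in Akita replicate 4. Lpcat1, the photoreceptor lysophosphatidylcholine acyltransferase, and Mboat2 fell in WT + NACET against WT, where 0.624% of all genes fell. Each fell by 0.70 (adjusted p = 0.0291 and 0.0314), calls lost in 8 and 7 of 27 alternatives. That comparison uses the WT + NACET libraries and carries the limit given above for them.

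The supply and the oxidation of fatty acids were described by 4 further lists. Of 10 genes that feed fatty acid synthesis 0 passed between Akita and WT, where 7.64% of all genes did. Acly, which makes cytosolic acetyl-CoA, fell in Akita + NACET against Akita by 0.31 ± 0.08 (adjusted p = 0.0239). Oxsm, of mitochondrial fatty acid synthesis, was lower in Akita + NACET than in WT + NACET (-0.52 ± 0.14, adjusted p = 0.0176). Of 13 genes of fatty acid activation and uptake 0 passed between Akita and WT, where 7.64% of all genes did. With NACET in Akita 1 of the 13 fell, where 5.14% of all genes did. This was Fabp7, a brain fatty acid binding protein, which fell by 0.66 ± 0.20 (adjusted p = 0.0465), a call lost in 21 of 27 alternatives. Peroxisomal β-oxidation performs the last chain-shortening step to docosahexaenoic acid. It had 1 of 13 genes higher in Akita (Scp2, 0.41 ± 0.11, adjusted p = 0.0300), where 3.96% of all genes were. With NACET in Akita 4 of 13 were lower, where 5.14% of all genes were. In Akita + NACET 7 of 13 were lower than in WT + NACET, where 7.26% were, among them Acaa1a (-0.38 ± 0.09, adjusted p = 0.0117), Decr2 and Pex7. The median log2 fold change of the 13 in that comparison was -0.26, against -0.00 over all genes. Of 16 mitochondrial oxidation genes 1 fell in Akita (Cpt1c), where 3.68% of all genes fell. With NACET in Akita 3 fell (Cpt2, Slc25a20 and Eci1), where 5.14% of all genes did. In Akita + NACET 4 were lower than in WT + NACET, where 7.26% of all genes were. They were led by the carnitine carrier Slc25a20 (-0.48 ± 0.08, adjusted p = 0.00119), with Etfb (-0.43 ± 0.09) and Acads (-0.79 ± 0.21). The comparisons with WT + NACET carry the limit given above for those libraries.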

How the data were processed

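Retinal RNA was profiled in 18 libraries, grouped by the sample labels. Per the study's methods, the authors made TruSeq poly(A) libraries, aligned single-end reads to mm9 with TopHat 2.1.0 and counted them per gene with HTSeq-count 0.11.2 without regard to strand. The deposited files list reads with several alignments as a summary entry, apart from the genes. The deposited values are raw counts. Summary entries and an entry with no name (0.00544% of counts on average) were left out, as were 206 ribosomal RNA genes (0.977%). Exon lengths and overlaps came from an mm9 annotation that held 96.11% of these gene names.

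Counts were tested by quasi-likelihood F tests in edgeR 4.0.16 (R 4.3.3 and limma 3.58.1), with TMM scaling, edgeR's own expression filter at its defaults (a count of 10 and a total of 15) and 1 fit of the 4 groups, for 5 comparisons and the interaction. p-values were adjusted by Benjamini-Hochberg over all 16183 genes, and a gene passed, or was called, at an adjusted p of at most 0.05. The study used DESeq2, an alternative here (1.42.0). CPM were computed on TMM library sizes, and ratios of related genes used a prior count of 2. SE were derived from the F statistic. The fit was tried on simulated data first. The biological coefficient of variation was 0.186. Counting error is largest for genes with few reads. No pair of replicates agreed within sampling noise (chi-square per gene of 4.54 or more). The members, lists and tests were chosen with earlier results of these data known. Named beside the 10 genes are 4 regulators and 3 genes that mark WT + NACET. Also named are up to 4 genes of each pathway list with a mean of at least 1 CPM. These had the smallest adjusted p in any comparison or in the interaction. Cpt1c, Cpt2 and the marker genes were named after their values were seen, and 1 gene of the marker lists is not reported here. Alternatives were DESeq2 with all or 2 groups, edgeR with 2 groups, DESeq2 size factors, other filters, ribosomal RNA genes kept, the replicate number as a block, the share of reads lying outside exons added to the model, and each library left out. Promoter sequences are RefSeq's, in GRCm38.p6, whose coordinates are not those of mm9.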

Additional observations from a re-analysis of the deposited data

Results flagged for a closer look

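Of 30 groups of 4 to 6 libraries over the 10 genes, 4 held a library far from the others by Dixon's criterion. Chance alone gives this in about 1 of 20 independent groups. The genes share their libraries, so the groups are not independent and their count cannot be set against that rate. Akita replicate 4 was far above the other Akita libraries in Elovl2 (456.1 CPM, the next 297), Elovl4 (2858 CPM, the next 2088) and Acsl6 (329.7 CPM, the next 269). In WT + NACET replicate 5 Fads1 was at 93.3 CPM, the next at 70.6.

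Several named genes passed the interaction test, as did 20.3% of all genes. Many of them were named for a small adjusted p in this same test, so their passing it is no separate result. Values are the log2 NACET difference in Akita minus that in WT. The values were 0.77 for Elovl6, 1.54 for Degs2, 1.01 for Lpcat1 and 0.84 for Mboat2. They were -0.64 for Oxsm, -0.64 for Lpcat2, -0.78 for Agpat3 and -0.42 for Mbtps1. Among oxidation genes they were -0.72 for Scp2, -0.53 for Decr2, -0.56 for Pex7, -0.46 for Acaa1a, -0.39 for Slc25a20 and -0.52 for Eci1. For the genes that mark the WT + NACET libraries they were -2.53 for Wdfy1, 3.57 for Acp1 and -3.09 for Fn3krp. All of these use the WT + NACET libraries, and Wdfy1, Acp1 and Fn3krp were named because those libraries stand apart in them. The calls of Oxsm, Slc25a20 and Acaa1a were kept in 11, 13 and 14 of 25 alternatives.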

How the results depend on the processing

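Over the 10 genes, 6 tests and up to 27 alternatives, 1558 of 1600 values kept their side of the threshold, 21 lost a call, 21 gained one and 0 turned direction while called. For Akita vs WT, where 3 genes were called, edgeR with 2 groups and the share of reads lying outside exons added to the model each called 0, and leaving out a library gave 0 to 4 (0 without WT replicate 1, WT replicate 2 or Akita replicate 4, and 4 without WT replicate 3). For Akita + NACET vs Akita, with 1 call, DESeq2 with all groups called 3, the model with that share 0, and leaving out a library 0 to 1 (0 without Akita replicate 4 or Akita + NACET replicate 5). For Akita + NACET vs WT + NACET, with 0 calls, DESeq2 with all groups, DESeq2 with 2 groups and edgeR with 2 groups each called 2, and leaving out a library 0 to 2 (2 without Akita replicate 4, 1 without WT + NACET replicate 1). For the interaction, with 0, DESeq2 called 2, a filter at a mean count of 50 called 1, and leaving out a library 0 to 3 (3 without WT replicate 3, and 1 each without WT + NACET replicate 2, Akita replicate 2 or Akita + NACET replicate 1). The other comparisons kept 0 in all. The calls over all genes moved too: leaving out a library gave 0 to 1612 for Akita vs WT and 1 to 1754 for Akita + NACET vs Akita, and edgeR with 2 groups gave 148 and 700, against 1237 and 1562. The causes were not tested. The replicate numbers did not pair the libraries (correlations of same-numbered libraries from -0.33 to 0.34). With the replicate block 2 genes were called for Akita vs WT and 0 for Akita + NACET vs Akita, where Elovl1 had an adjusted p of 0.0587, and 0 in the other tests. With the block 219 genes in all were called for Akita + NACET vs Akita, against 1562 without it. Depth limits Elovl1 and Scd1 most, with at most 214 and 245 reads in a library.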

Other observations

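Marker lists of other retinal cells, described by their counts, moved with the groups in ways the account above does not use. Of 9 cone markers 0 passed in Akita vs WT and 4 (Gnat2, Pde6c, Pde6h and Gngt2) fell in Akita + NACET vs Akita, where 5.14% of all genes fell. Of 9 amacrine markers 5 fell in Akita (Gad1, Gad2, Slc6a9, Tcfap2b and Slc32a1), where 3.68% of all genes fell, and 3 rose with NACET in Akita, where 4.51% of all genes rose. Of 9 endothelial markers 1, the tight junction gene Cldn5, fell in Akita, where 3.68% of all genes fell. With NACET in Akita 2, Cldn5 and Slco1a4, rose, where 4.51% of all genes rose. Of 10 bipolar, 10 ganglion cell and 6 horizontal cell markers 0 passed in either comparison. Of 9 microglial markers 0 passed in either, and 5 (Cx3cr1, C1qa, C1qb, C1qc and Csf1r) were lower in Akita + NACET than in WT + NACET, where 7.26% of all genes were lower. Of 5 blood markers 2 (Hbb-b2 and Alas2) were higher in Akita + NACET than in Akita, where 4.51% of all genes were. Against WT + NACET 3 (Hba-a1, Hbb-b2 and Alas2) were higher in Akita + NACET, where 6.01% of all genes were. Without Akita replicate 4 every one of the calls given here for Akita vs WT or Akita + NACET vs Akita ended, other than the fall of Tcfap2b in Akita (adjusted p = 0.0466). None of 8 lens markers passed in any comparison, with single libraries setting their level.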
